A study of Homo sapiens with 20 samples.

Results

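The genes followed through 16 H3K27ac libraries act at the passage from G1 into S phase: the D-type cyclins CCND1, CCND2 and CCND3, the E-type cyclins CCNE1 and CCNE2, the kinases CDK2, CDK4 and CDK6, the kinase inhibitor CDKN1B (p27) and the transcription factor E2F1. These 10 of 20033 protein-coding genes were chosen by symbol, with their H3K27ac peak and super-enhancer (SE) calls in these same libraries already known, so their calls, peak numbers and summit folds are given as a description, with no p for any single member. Where a fit over all genes is given, it is said how many members it called, which is no independent evidence about them. A gene's window was its GENCODE body plus 10 kb on each side.

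H3K27ac, the acetylation of histone H3 at lysine 27 found at active promoters and enhancers, was measured by ChIP-seq in the colorectal cancer line HCT-116. Cells were wild type (WT) or FBXW7-/- (KO), both from 1 supplier of edited lines, and whether the KO line is 1 clone was not stated. FBXW7 is the substrate-binding part of a ubiquitin ligase. All cells were transfected for 48 h with enzymatically prepared siRNAs, either a control (esiCT) or one against the deacetylase HDAC4 (esiHDAC4), and were untreated (UNT) or given 50 µM oxaliplatin (OXPT), a platinum drug that damages DNA, for the last 24 h. Each of the 8 combinations had 2 libraries, replicates A and B, and the labels state that 3 experiments were combined, so A and B may differ by less than single experiments would.

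As background, cyclin D with CDK4 or CDK6, and then cyclin E with CDK2, phosphorylate the retinoblastoma protein and free E2F factors, which switch on S-phase genes. p27 binds and inhibits these kinase complexes. Cyclin E is a well-known substrate of FBXW7, which acts on the protein and not on the gene.

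The libraries differed widely in the length of their peak lists. Their peak lists held between 1752 peaks (KO esiHDAC4 UNT B) and 27927 peaks (WT esiCT UNT A), and between 4.95% and 67.4% of all gene windows held a peak. The shortest lists were the 4 KO libraries of replicate B. The number of peaks in the 10 member windows rose and fell with the length of the list, with Pearson's r of 0.915 on log2 values over the 16 libraries, which share their members. Windows of 7 of the 8 epithelial and colorectal marker genes held peaks in 10 to 16 libraries, the exception being VIL1 with 1 library. Those of CD3E, COL1A2 and ALB, markers of other cell types, held none, and that of PTPRC held one in 2. PECAM1 and GFAP, also of other cell types, had peaks in 11 and 8 libraries. Peaks near FBXW7 (10 libraries) and HDAC4 (16 libraries) do not show whether either protein was lost.

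**Figure D1:**
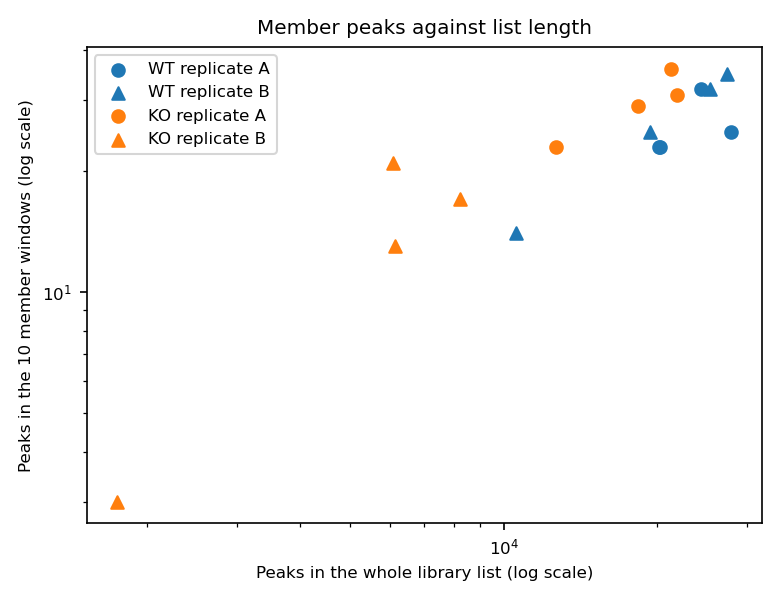
Peaks in the 10 member windows against all peaks in the list of each library, both on log scales, with WT and KO in different colours and replicates A and B as circles and triangles. Longer lists held more member peaks, from 3 member peaks in the list of 1752 peaks upwards.

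The sequences that carry what follows are of 2 kinds: the start sites of the members, where H3K27ac flanks an active promoter, and an intronic element of CDK6. RefSeq promoters (GRCh38.p14) were matched for 6 of the 10 members, CCND3, CCNE1, CDK4, CDK6, CDKN1B and E2F1. CCND1, CCND2, CCNE2 and CDK2 were not matched. For 3 members the 250 bases before the start are given 5′ to 3′ on the strand of the gene. They are E2F1 (chr20:33686386-33686635, minus strand), CDKN1B (chr12:12717118-12717367, plus strand) and CDK6 (chr7:92836574-92836823, minus strand). Capitals mark the E2F motif, searched on both strands as TTTCGCGC, TTTGGCGC, TTTCCCGC or TTTGCCGC.
E2F1: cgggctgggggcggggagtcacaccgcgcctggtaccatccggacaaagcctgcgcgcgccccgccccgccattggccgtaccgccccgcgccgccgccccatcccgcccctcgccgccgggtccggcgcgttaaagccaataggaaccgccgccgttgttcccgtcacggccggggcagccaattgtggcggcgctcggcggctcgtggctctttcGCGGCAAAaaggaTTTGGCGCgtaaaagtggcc
CDKN1B: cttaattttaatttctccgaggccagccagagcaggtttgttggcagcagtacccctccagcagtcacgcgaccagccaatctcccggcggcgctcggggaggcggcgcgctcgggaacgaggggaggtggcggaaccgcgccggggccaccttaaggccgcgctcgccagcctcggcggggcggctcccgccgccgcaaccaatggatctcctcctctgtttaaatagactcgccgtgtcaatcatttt
CDK6: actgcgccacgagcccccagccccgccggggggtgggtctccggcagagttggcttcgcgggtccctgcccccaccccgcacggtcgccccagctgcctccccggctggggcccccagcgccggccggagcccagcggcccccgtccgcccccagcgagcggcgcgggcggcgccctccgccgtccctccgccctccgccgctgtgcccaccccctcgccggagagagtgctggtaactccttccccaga

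The E2F1 window of 250 bases held 2 matches, 1 on each strand, and no other printed promoter held one. Of all 35116 RefSeq promoters of that length, 2.79% held at least 1 match. GC content was 72.4% for E2F1, 64.4% for CDKN1B and 80.0% for CDK6, against a median of 58.0% over all promoters. No H3K27ac peak of any library lay over the E2F1 stretch, and peaks of 3 libraries each lay over the CDKN1B and CDK6 stretches.

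The CDK6 element was a region of 4847 bp in an intron (hg38 chr7:92693809-92698655), joined from overlapping peaks of 15 libraries and centred 140 kb downstream of the start site. The 300 bases around the summit of its strongest peak, that of KO esiHDAC4 OXPT B (chr7:92696515-92696814, plus strand), are given because this region separated the genotypes. Capitals mark the longest exact repeat, 23 bases found 2 times, 48 bases apart.
CDK6 intron: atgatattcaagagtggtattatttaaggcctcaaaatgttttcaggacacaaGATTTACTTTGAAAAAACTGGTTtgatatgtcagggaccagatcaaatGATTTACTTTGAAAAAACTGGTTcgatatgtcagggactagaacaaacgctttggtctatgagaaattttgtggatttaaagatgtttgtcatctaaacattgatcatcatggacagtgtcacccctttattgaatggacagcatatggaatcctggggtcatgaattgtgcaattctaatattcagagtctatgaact

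A repeat as long was found in 1.46% of the 6084 summit windows of that library. Summits were scattered over the region: the strongest summit of 2 of the 15 libraries, this one included, lay within 150 bp of the point shown. A second CDK6 element, also intronic and centred 26.7 kb downstream of the start, was called in 8 WT and 4 KO libraries. Of the 15824 whole gene windows with any peak, 19.5% had one in at least 4 fewer KO than WT libraries. The share among single peak regions was not counted. The second element is given for comparison (chr7:92809501-92809800, plus strand, around the summit in WT esiCT UNT A).
CDK6 intron, start-proximal: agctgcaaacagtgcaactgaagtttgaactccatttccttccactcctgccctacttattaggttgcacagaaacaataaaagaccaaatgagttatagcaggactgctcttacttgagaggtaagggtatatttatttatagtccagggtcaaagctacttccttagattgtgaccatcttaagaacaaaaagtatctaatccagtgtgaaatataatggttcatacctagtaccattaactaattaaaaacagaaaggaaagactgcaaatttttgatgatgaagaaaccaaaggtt

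Summits were tighter there, with 8 of 12 libraries within 150 bp of the point shown. GC content was 35.7% here and 35.0% in the first element.

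Over all libraries, 382 peaks fell in the member windows and, joined where they overlapped, formed 42 separate regions. Of these, 8 covered a start site of the member, 21 lay in introns, 3 overlapped exons and 10 lay outside the gene. There were 13 regions called in 1 library and 10 in 12 or more libraries. Of the 42, 8 covered the start site of another gene, so a call in a member's window is not always a call at the member. The members fell into 3 classes by how often a peak was called. CDK6 and CDKN1B had one in all 16 libraries, CCND1 in 15, CDK4 in 14, CDK2 in 13 and E2F1 in 12. CCND3 and CCNE1 had one in 10 libraries each, whereas CCNE2 and CCND2 had one in 2 and in 1. Over all gene windows the median was 8 libraries.

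The highest summit fold in a window, the ratio of reads at the summit to the local background as MACS2 reports it, gave the order of the levels. Median folds over the libraries with a peak were 6.05 for CCND1, 5.72 for CDKN1B, 5.50 for CDK6, 5.40 for E2F1, 5.04 for CDK4, 4.85 for CDK2, 4.29 for CCNE1, 4.24 for CCND3, 3.41 for CCNE2 and 3.28 for CCND2. The SD over libraries of the first 8 members ran from 0.577 to 1.61, which was wider than the step to the next member in that order, so among these 8 no neighbours differed beyond their spread. These folds rest on few reads, between 10 and 43 at the strongest summit of any member.

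**Figure D2:**
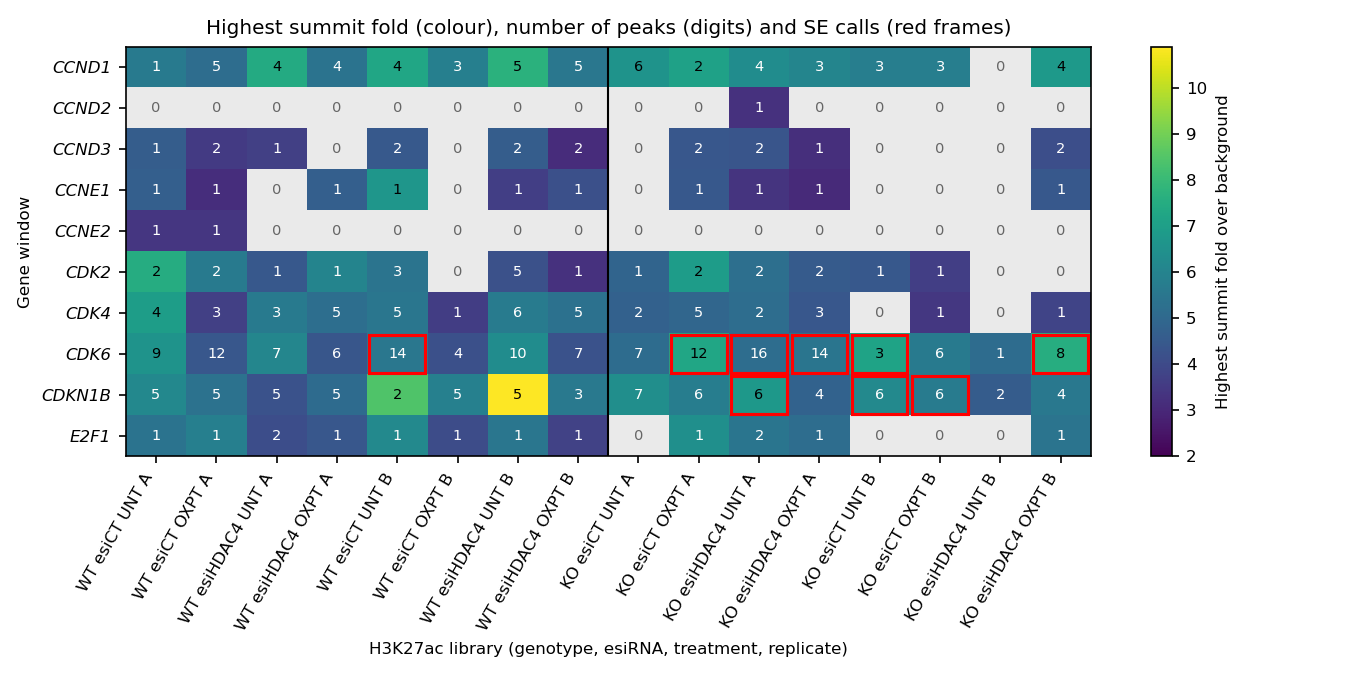
Highest summit fold over background (colour) in each member window (rows) and library (columns, WT left and KO right of the line), with the number of peaks as digits, grey cells for windows without a peak and red frames for windows with an SE. CCND1, CDK6 and CDKN1B were called almost throughout, CCND2 and CCNE2 almost never, and SEs were called at CDK6 and CDKN1B.

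CCND1, which encodes cyclin D1, had a single region of 7.92 kb that straddled its start site (chr11:69636792-69644714). It was joined from overlapping peaks. Libraries with a peak covered from 1134 bp (KO esiCT UNT B) to 7923 bp (WT esiCT UNT A) of it. The region was missing in 1 library of the 16, KO esiHDAC4 UNT B, the shortest list. CCND1 peaks were among the strongest of their lists, with a median percentile of 95.1 and a range from 76.9 to 99.0. The highest fold ran from 5.18 through a median of 5.72 to 7.67 in WT, and from 5.79 through 6.33 to 7.08 in KO. The KO range lay inside the WT range.

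Peaks on either side of the CCND1 start were looked at separately after the values had been seen. Within 4 kb downstream of the start, the strongest summit in the 4 untreated WT libraries had folds of 5.61, 5.82, 6.80 and 7.43. In the 4 WT libraries with OXPT it had 2.85, 2.89, 3.32 and 4.62. All treated WT libraries therefore lay below all untreated ones, as they did for 11.7% of 3496 genes with summits there. After each library was centred on its own median fold, the groups overlapped at CCND1 and were separate in 1.2% of those genes. In KO the values were 4.55 and 6.33 without OXPT and 2.73, 5.43 and 6.76 with it, which overlapped.

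**Figure D3:**
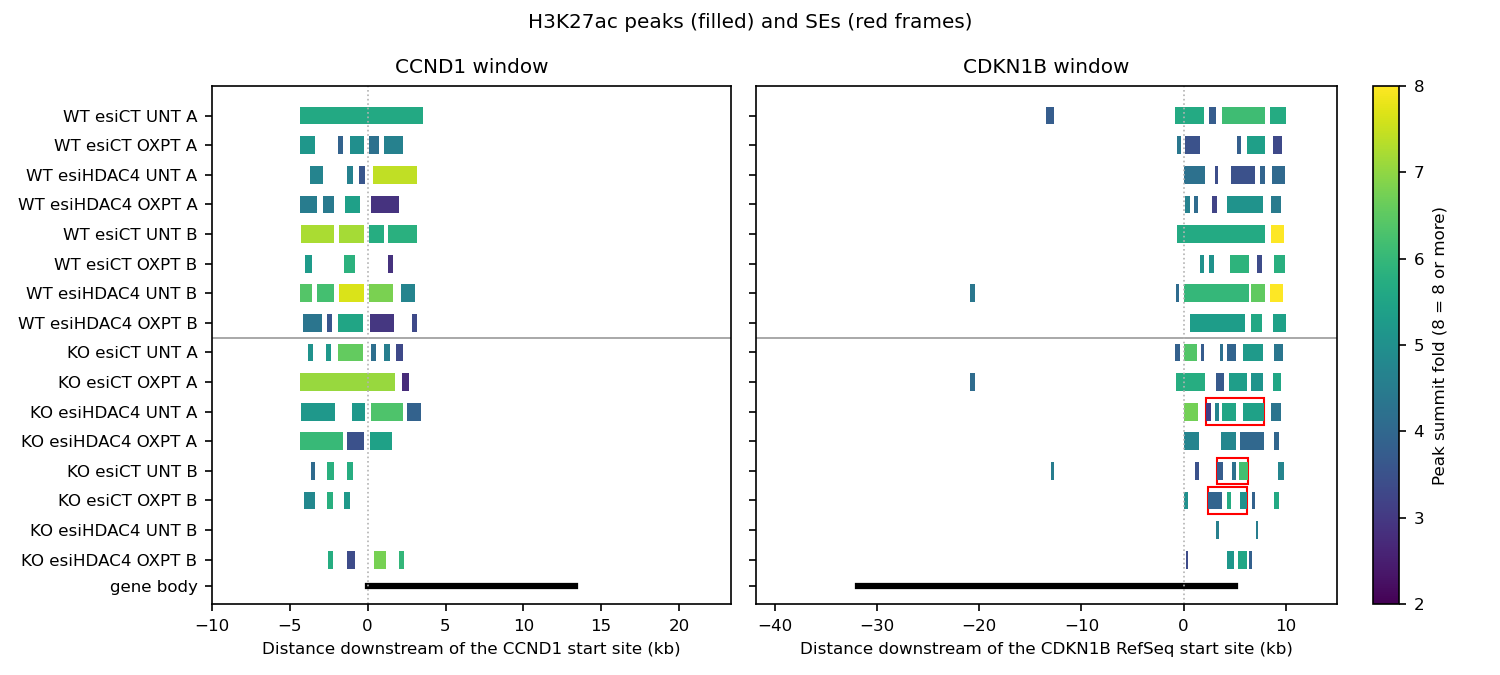
Peaks (filled, coloured by summit fold) and SEs (red frames) of each library against the distance in kb downstream of the start site, for the CCND1 (left) and CDKN1B (right) windows, with the gene body as a black bar below. CCND1 peaks flank its start, and CDKN1B peaks run from its RefSeq start to a separate peak at the APOLD1 start, with SEs in 3 KO libraries.

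CCND2, the D-type cyclin least marked here, had 1 intronic peak of fold 3.28, in KO esiHDAC4 UNT A. CCND3 had a peak in 6 WT and 4 KO libraries. In 7 libraries it lay at a distal CCND3 start (chr6:42048114-42050028), and in 7 it lay further upstream, outside CCND3, at the start of the neighbouring TAF8 (chr6:42050559-42051313). CCND3 folds were low in both genotypes, at 3.13 to 4.61 in WT and 3.21 to 4.41 in KO.

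The E-type cyclins, which activate CDK2, were marked weakly or not at all. CCNE1 had 1 peak region, 436 bp upstream of its start (chr19:29810373-29811555), in 6 WT and 4 KO libraries. Its folds ran from 3.15 through 4.41 to 6.67 in WT and from 3.04 through 3.88 to 4.43 in KO, which overlapped. CCNE2 peaks were called in WT esiCT UNT A, with fold 3.42, and WT esiCT OXPT A, with fold 3.41. The lists do not give the signal of a window without a call, so a missing call sets no level.

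Among the kinases, CDK2, the partner of cyclin E, had its main peak region at its start (chr12:55965767-55967737) in 7 WT and 6 KO libraries. The same region covers a start of PMEL, and the data do not assign it to one of them. The highest fold in it ran from 2.70 through 5.35 to 7.49 in WT and from 3.66 through 4.69 to 5.25 in KO. The highest KO value of the window, 6.90 in KO esiCT OXPT A, belonged to a region outside the gene (chr12:55974108-55974910).

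CDK4, a partner of the D-type cyclins, lay in a crowded window with starts of AGAP2, TSPAN31, MARCHF9 and CYP27B1. Its peak region called most often, in 12 libraries, covered the start of TSPAN31 and not of CDK4. The 2 regions at CDK4 starts were called in 8 libraries each, both in 6 WT and 2 KO libraries. How often single peak regions differed as much in calls was not counted. The number of peaks in the window was 1 to 6 in WT with a mean of 4 ± 1.6 (SD, n = 8) and 0 to 5 in KO with a mean of 1.75 ± 1.67 (SD, n = 8). CDK4 was the only 1 of the 8 members with a peak in at least 4 libraries whose KO mean was below 50% of its WT mean, and 43.6% of 13129 gene windows met that mark, so CDK4 did not stand out from the background. The shorter KO lists move with this number and their part in it was not tested.

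CDK6, the other partner of the D-type cyclins, is a long gene (231.7 kb) and held 136 of the 382 member peaks in 16 regions. The mean number of peaks over all libraries was alike in both genotypes. There were 4 to 14 peaks in WT, with a mean of 8.62 ± 3.29 (SD, n = 8). In KO there were 1 to 16, with a mean of 8.38 ± 5.26 (SD, n = 8). The replicates differed in direction. In A there were 6 to 12 peaks in WT and 7 to 16 in KO, and in B 4 to 14 in WT and 1 to 8 in KO. Over all 13129 windows peak number was lower in KO in 94%, with a median log2 difference of -0.53, a scale unlike that of the CDK6 means. Most of the CDK6 peaks fell into 4 places, namely the start site (13 libraries), the introns 26.7 kb (12 libraries) and 140 kb (15 libraries) downstream, and an intronic region 202 kb downstream (14 libraries).

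The intronic region at 140 kb was stronger in KO. Its highest fold in the 8 KO libraries was 4.87, 4.94, 5.04, 5.07, 5.12, 5.13, 7.16 and 7.54. In the 7 WT libraries with a peak it was 3.05, 3.39, 3.47, 3.64, 3.76, 3.83 and 4.01, and WT esiHDAC4 OXPT A had none. Every KO library lay above every WT library, with means of 5.61 ± 1.08 (SD, n = 8) and 3.59 ± 0.317 (SD, n = 7). By letter, the A libraries held 4.87 to 5.13 (KO) and 3.76 to 4.01 (WT), and the B libraries 5.07 to 7.54 (KO) and 3.05 to 3.64 (WT), a separation that already follows from that over all libraries. Within their own lists, the KO peaks stood at a median percentile of 79.3 and the WT peaks at 36.3.

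Of 2538 peak regions of the genome called in at least 6 libraries of each genotype, 3 (0.118%) had every KO library above every WT library on the deposited fold, and 7 (0.276%) did after centring on the library median. The opposite, every KO library below every WT library, was found in 13 and 8 regions. The mark is the pattern already seen at the CDK6 region, so these shares are only a description. Of the 7 member regions that could be compared, the CDK6 region had every KO library above every WT library on both scales. The other 6 overlapped. On the centred log2 scale the means of KO and WT differed by 0.75, with a pooled SD of 0.26, and by 0.68 to 0.80 when any 1 library was left out.

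The separation did not hold on every scale. Reads at the summit with most reads in the region numbered 11 to 30 in KO and 12 to 22 in WT. The local background of the peak of highest fold was 1.34 to 5.37 reads in KO and 2.24 to 5.63 in WT. The background of a library was taken as a low quantile of the local background over its peaks. Relative to it, the local background was 1.26 to 1.86 in KO and 1.36 to 2.32 in WT. The largest summit reads were then divided by that library background, a scale chosen after the data were seen. On it KO ran from 7.97 to 14.5 and WT from 6.52 to 9.05. The groups then overlapped, and the log2 means differed by 0.55. This scale also takes the summit with most reads and leaves out the constant that MACS2 adds to both counts. More than the background therefore changed, and the part of the local background in the separation was not tested.

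**Figure D4:**
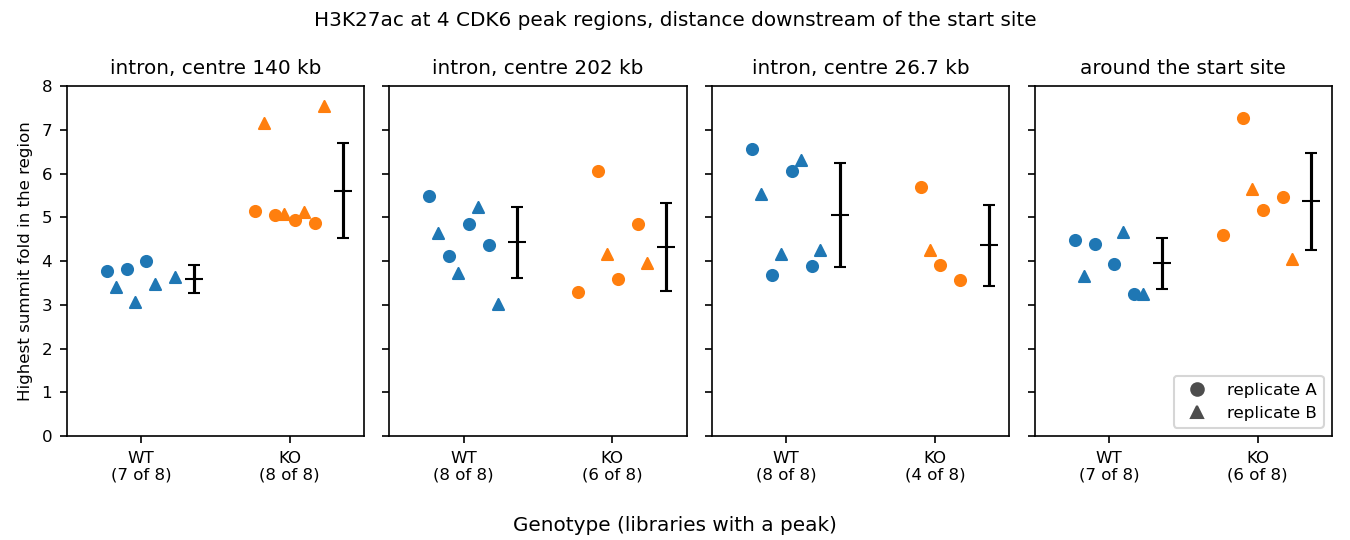
Highest summit fold at 4 CDK6 peak regions in each library with a peak, WT in blue and KO in orange, circles for replicate A and triangles for replicate B, with the mean and SD beside each group. At the intronic region centred at 140 kb the 8 KO libraries lie above the 7 WT libraries, and at the other 3 regions the groups overlap.

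The other CDK6 regions overlapped between genotypes. At the start site, folds were 3.24 to 4.66 in 7 WT libraries and 4.04 to 7.27 in 6 KO libraries, with means of 3.94 ± 0.589 (SD, n = 7) and 5.36 ± 1.10 (SD, n = 6). On the centred log2 scale these means were -0.67 ± 0.19 in WT and -0.13 ± 0.25 in KO. Among libraries with a peak there, the mean was thus also higher in KO, by more than the SD of either group. Single libraries overlapped, with the lowest KO value at -0.41 and the highest WT value at -0.37. WT esiCT OXPT B, KO esiCT UNT B and KO esiHDAC4 UNT B had no peak within 1 kb of a CDK6 start. How often regions of the genome differed as much was not counted. At 26.7 kb, they were 3.68 to 6.56 in 8 WT libraries and 3.58 to 5.68 in 4 KO libraries. At 202 kb, they were 3.01 to 5.49 in 8 WT libraries and 3.29 to 6.05 in 6 KO libraries.

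SEs, the long stretches of joined enhancers that ROSE ranks highest in a library, were called at 2 of the 10 members, and 91.9% of all gene windows had none. Whether the deposited SEs were also filtered on H3K4me1, as the study's methods require, was not stated. CDK6 had an SE in 6 libraries. An SE over the intronic region at 140 kb was called in KO esiCT OXPT A, KO esiHDAC4 UNT A, KO esiHDAC4 OXPT A, KO esiCT UNT B and KO esiHDAC4 OXPT B, and in no WT library. When the SEs of all libraries were joined where they overlapped, 3 of 1873 (0.16%) were called in at least 5 KO and no WT libraries, this one included. That mark equals the count seen at this SE, so the share is only a description. This SE spanned 3.81 to 8.02 kb and was short for an SE, ranking for example 164 of 187 by length in KO esiHDAC4 OXPT B and 735 of 930 in KO esiCT OXPT A. The peaks beneath it were called in 7 of 8 WT libraries as well, so SE and peak calls differed there. Further SEs lay near 206 kb in KO esiCT OXPT A, KO esiHDAC4 OXPT A and WT esiCT UNT B, and at 77.0 kb in WT esiCT UNT B.

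**Figure D5:**
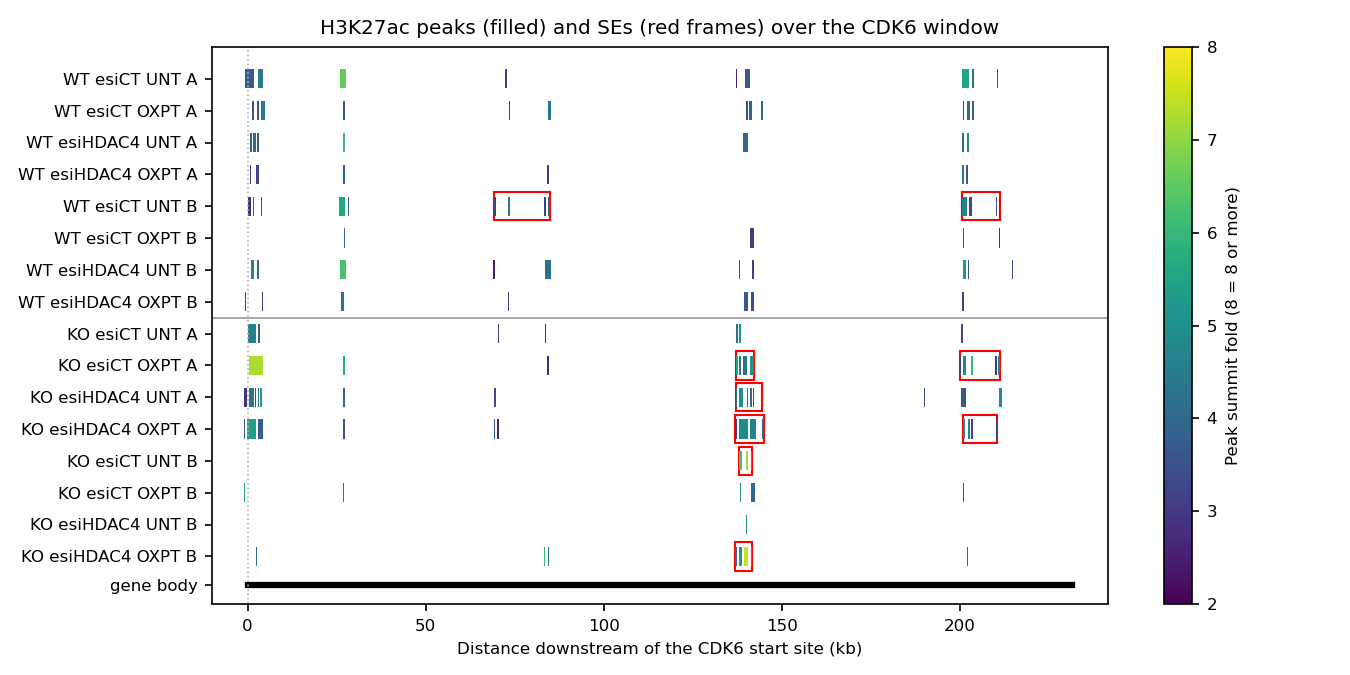
Peaks (filled, coloured by summit fold) and SEs (red frames) of each library over the CDK6 window, against the distance in kb downstream of the start site, with the gene body as a black bar. SEs near 140 kb appear in 5 KO libraries and in no WT library, while peaks there appear in both genotypes.

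CDKN1B, whose product p27 restrains these kinases, had a broad region from before its RefSeq start to beyond its 3′ end (chr12:12716544-12725385). It was joined from overlapping peaks of all 16 libraries, and single libraries could cover much less. In KO esiHDAC4 UNT B, peaks covered 533 bp of the whole window. A second region, at the start of the neighbouring APOLD1 (chr12:12725824-12727420), was called in 8 WT and 6 KO libraries. The highest fold of the window ran from 4.22 through 5.73 to 10.9 in WT and from 4.6 through 5.72 to 6.73 in KO. The highest values, 10.9 in WT esiHDAC4 UNT B and 8.45 in WT esiCT UNT B, belonged to the APOLD1 peak. At the broad region alone, means were 5.56 ± 0.703 (SD, n = 8) in WT and 5.71 ± 0.743 (SD, n = 8) in KO. These differed by less than the spread between libraries.

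The CDKN1B window held 2 to 5 peaks in WT and 2 to 7 in KO, and here more peaks did not mean more marked sequence. WT esiCT UNT B had 2 peaks over 9829 bp, and KO esiCT UNT B had 6 over 3218 bp. SEs were called over the 3′ part of CDKN1B and beyond in KO esiHDAC4 UNT A, KO esiCT UNT B and KO esiCT OXPT B, starting 2.23 to 3.27 kb downstream of the start. These SEs were short, spanning 3.06 to 5.61 kb and ranking 474 of 562, 247 of 271 and 363 of 435 by length, in the order named. Of 1617 windows with an SE in any library, 4 (0.247%) had one in at least 3 KO and no WT libraries, CDKN1B included. That mark equals the count seen at CDKN1B, so the share is only a description. The CDK6 window does not meet that mark, since WT esiCT UNT B has an SE elsewhere in it.

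E2F1, which drives S-phase genes, had no peak within 1 kb of its start in any library. The calls in its window came from 1 region at the start of NECAB3 (chr20:33672547-33675275), 11.1 kb from the E2F1 start. All 8 WT libraries and 4 KO libraries had it. E2F1 was the only 1 of the 10 members with at least 4 fewer KO than WT libraries, and 19.5% of the 15824 windows with any peak met that mark. The 4 KO libraries without a peak were KO esiCT UNT A and 3 of the short lists of replicate B.

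To ask how genotype, OXPT and HDAC4 silencing related to these windows, the same comparisons were run over all protein-coding genes, with Benjamini-Hochberg adjustment over every gene tested. For the highest fold, limma with replicate as a block called 0.295% of 5418 genes for KO against WT (16 genes), and 0% each for the OXPT and the esiHDAC4 comparison over all 16 libraries, with 435 and 238 genes at an unadjusted p under 0.05. The contrasts within single conditions called 0% as well. These were OXPT in WT esiCT and in KO esiCT, the difference between those responses, and esiHDAC4 in OXPT-treated KO cells, with 412, 247, 285 and 268 genes at an unadjusted p under 0.05. None of the 5 members with peaks in at least 12 libraries that could be fitted was called in any of the 3 main contrasts, where CDK6 is left out for genotype because its pattern was known.

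The fitted differences of the members are given on the centred log2 scale. They are differences of the highest fold in the window. That peak could lie at different elements, or at the start of a neighbouring gene, in different libraries. For KO minus WT, CDK6 had 0.33 (SE 0.11), a description only. The other fitted members had 0.12 (SE 0.12) for CCND1, -0.02 (SE 0.13) for CDKN1B, -0.04 (SE 0.14) for CDK2 and -0.14 (SE 0.13) for CDK4. The median of these 4 members was -0.03, as was that of all genes tested. For OXPT minus UNT the members ran from -0.11 (CDK4) to 0.07 (CDK2) with a median of 0.01, against 0.04 over all genes. For esiHDAC4 minus esiCT they ran from -0.21 (CDK2) to 0.17 (CDK4) with a median of 0.02, against -0.02 over all genes.

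Peak calls, SE calls and peak numbers were compared by exact tests within replicate letters. These called 0% of 11069, 739 and 13129 windows in each of the 3 comparisons. No member that entered a test was called. For peak calls these were CCND3, CCNE1, CDK2 and E2F1, and for SE calls CDK6 and CDKN1B. For peak number they were all members except CCND2 and CCNE2. The remaining members had calls in too many or too few libraries to enter. The CDK6 SE is left out for genotype. The smallest p these tests can give is 4.08e-04. After adjustment a window could therefore pass only if many windows reached such a low p together. CDKN1B, with SE calls in 3 libraries, could not pass under any split of them. A missing call thus does not show that a window was unchanged. Before adjustment, p was under 0.05 in 1627, 47 and 4316 windows for KO against WT, 93, 10 and 189 for OXPT, and 11, 1 and 30 for esiHDAC4. CDK4 alone among the members passed the threshold for peak number when WT esiCT OXPT B or KO esiCT OXPT A was left out, in fits that then called 2725 and 1822 of all windows.

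The esiCT libraries give the values with and without OXPT, named by replicate letter. At CCND1 in WT the highest fold was 5.61 (A) and 7.24 (B) without OXPT and 5.18 (A) and 5.82 (B) with it. The deposited fold was thus lower with OXPT in both, whereas the centred log2 difference was 0.32 (A) and 0.14 (B), so the direction turned with the scale. In KO it was 6.56 (A) and 5.80 (B) without and 7.08 (A) and 5.79 (B) with it, with centred differences of 0.02 and -0.08. At CDK6 in WT it was 6.56 (A) and 5.52 (B) without and 4.40 (A) and 4.15 (B) with OXPT, with centred differences of -0.14 and 0.04. In KO it was 5.13 (A) and 7.16 (B) without and 7.27 (A) and 5.64 (B) with it, and A and B differed in direction on both scales. The KO values without OXPT came from the intronic region at 140 kb and those with it from the start site. They are therefore not values of the same element. In the CDKN1B window in WT the highest fold was 6.14 (A) and 8.45 (B) without and 5.35 (A) and 5.87 (B) with OXPT. The centred differences were 0.23 and -0.07. The 8.45 belonged to the APOLD1 peak, so the values of B are not a comparison at CDKN1B alone. In KO the highest fold was 6.40 (A) and 6.20 (B) without and 5.75 (A) and 5.69 (B) with OXPT, with centred differences of -0.24 and -0.20. With HDAC4 silenced in OXPT-treated KO cells, CDKN1B stood at 4.79 (A) and 5.54 (B), CCND1 at 6.05 (A) and 6.76 (B) and CDK6 at 5.47 (A) and 7.54 (B).

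A further list of 36 genes of the same pathway gave the setting. It held other inhibitors, the retinoblastoma family, other E2F and DP factors, the CDK-activating kinase and the origin licensing genes. Of these, 35 had a peak in at least 1 library, 15 in at least 12 libraries and 3 in all 16 (CDKN1A, CKS1B and PCNA), and 4 had an SE in any library (CDKN1A, CDKN1C, E2F2 and CDC6). None of the 12 genes tested for the highest fold passed in any of the 3 main contrasts, with medians of 0.02, 0.07 and 0.03 on the log2 scale. For KO against WT, the smallest unadjusted p belonged to E2F4, a repressive E2F (log2 difference -0.42, SE 0.15, limma adjusted p = 0.189), CDKN1C, encoding p57 (-0.34, SE 0.14, limma adjusted p = 0.233), and CDKN2A, encoding p16 (0.32, SE 0.14, limma adjusted p = 0.290). For OXPT against UNT, they belonged to CDKN1A, encoding the p53 target p21 (0.42, SE 0.12, limma adjusted p = 0.294), E2F4 (0.41, SE 0.15, limma adjusted p = 0.456) and E2F5 (-0.23, SE 0.12, limma adjusted p = 0.682). For esiHDAC4 against esiCT, they belonged to CDKN2A (-0.19), CDKN2B (-0.19) and CDT1 (-0.14), each with a limma adjusted p = 1.00. Peak number was lower in KO in all 32 pathway genes tested, with a median of -0.58 on the log2 scale, and none passed. Over all 13129 windows it was lower in 94% with a median of -0.53.

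Genes whose centred highest fold ran most like a member's over the libraries are named as a description, since all points share their libraries. For CCND1 they were IVNS1ABP (Pearson's r = 0.858 over 14 libraries), LYRM7 and HINT1 (both 0.829 over 13 libraries, from 1 shared peak). For CDK6 they were KIF17 (0.803 over 13 libraries), DCTN5 (0.798 over 12 libraries) and ARHGAP29 (0.767 over 16 libraries).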

How the data were processed

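H3K27ac ChIP-seq of HCT-116 cells gave 16 libraries. Per the labels, the submitters' processing notes name Trimmomatic 0.39, Bowtie2 2.4.4, SAMtools 1.18, MACS2 2.2.7.1 and hg38; SEs were joined with ROSE. The 4 inputs listed were not analysed here. In the deposited peak lists, column 7 is the fold (ratio) of summit pileup to local background, and p-values and q-values are −log10 values. The deposited score is an integer from the q-value. Deposited SE lists hold positions. All 271550 peaks used ended inside the hg38 chromosomes.

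Members and lists were chosen with earlier results of these data known. Genes named were all members, pathway genes past the threshold or the 3 with the smallest unadjusted p, and the 3 genes most like CCND1 and CDK6. A peak belonged to a window by 1 bp of overlap (GENCODE version 44, 20033 genes). The lists give no read totals, so whole summit reads were solved from fold and −log10 p (tolerance 0.01, −log10 p below 60). A low quantile of the local background over each library's peaks, 1.02 to 3.07 reads, served as the depth. For WT esiCT UNT B the summit reads were solved with a pileup scale of 0.968.

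Log2 highest folds were centred on the library median over 484 genes with a peak everywhere and fitted with limma 3.58.1 in R 4.3.3 (8 groups, replicate as block, genes with a peak in at least 12 libraries). A library without a peak was left out for that gene. Peak number, as log2(n + 1), was tested two-sided over 4900 arrangements within letters in windows with a peak in at least 4 libraries. The smallest p these can give is 4.08e-04. Calls were tested by exact conditional tests stratified by letter in windows called in 3 to 13 libraries. The threshold was an adjusted p of 0.05 over all genes tested. The p-values measure the spread between these libraries. Data were simulated with the same normal spread for every gene and no replicate effect. On these, limma recovered 57.7% of log2 changes of 0.5 and 97.9% of 1 (KO against WT, 5418 genes). Recovery at the spreads of real genes, and in contrasts within single conditions, was not measured. Sequences came from RefSeq (GRCh38.p14) and hg38. Python 3.11.15 was used. A marker gene of another cell type is not reported here.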

Additional observations from a re-analysis of the deposited data

Results flagged for a closer look

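These 4 patterns were singled out because both libraries of one genotype moved one way and both of the other moved the opposite way. None of these differences was tested, and 10 members were compared in 4 contrasts on both peak number and fold. Of all windows compared, 6.11% met the same rule in the first of the contrasts below, 12.3% in the second, 0.594% in the third and 12.4% in the last. The peak number at CDK4 was lower with OXPT in WT esiCT cells (log2 change -0.32 in A and -1.58 in B) and was higher in KO esiCT cells (1.00 in both), a difference of 1.95. The centred log2 fold at CDK6 was lower with OXPT in WT esiHDAC4 cells (-0.29 and -0.35) and higher in KO esiHDAC4 cells (0.34 and 0.46), a difference of 0.72. With HDAC4 silencing in untreated cells, the peak number at CCND1 was higher in WT (1.32 and 0.26) and lower in KO (-0.49 and -2.00), a difference of -2.04. In the same contrast the centred log2 fold at CDK6 was higher in WT (0.16 and 0.28) and lower in KO (-0.09 and -0.39), a difference of -0.46. The last 3 patterns use KO esiHDAC4 UNT B, the shortest list, with 1752 peaks. The CDK6 folds are the highest of the window, and that peak lay at different CDK6 elements in different libraries.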

How the results depend on the processing

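For the highest fold, KO against WT, 16 genes were called. The count was 61 with the fold as deposited, 1 with genes in all 16 libraries or in at least 4, 0 with missing values set to the lowest fold, 9 with start-site peaks, 0 with gene bodies alone and 30 with 50 kb flanks. Without the replicate block it was 0. The study's methods fit replicate as a batch, and deviations of same-lettered libraries correlated from -0.12 to 0.40, over 0.1 in 15 of 28 pairs of groups, so the data alone did not settle the pairing. In place of 0, OXPT against UNT called 1 with gene bodies alone and 2 with 50 kb flanks, and with the fold as deposited esiHDAC4 called 3, OXPT in WT esiCT 5 and the difference of the OXPT responses 3. Peak number, KO against WT, called 2591 with 50 kb flanks. Leaving out 1 library gave 0 to 20 genes for KO against WT, 0 to 2 for OXPT, 0 to 3 for esiHDAC4, 0 to 1 for OXPT in WT esiCT and, for peak number in KO against WT, 0 to 2725 windows. The last was 2725 without WT esiCT OXPT B, 1822 without KO esiCT OXPT A, 1626 without KO esiHDAC4 UNT A and 1094 without KO esiHDAC4 OXPT A. Among named genes, CDKN2A in KO against WT reversed to -0.29 with missing values set to the lowest fold, where CCND1 moved to -0.11 and CDK4 to -0.51. The causes were not tested. Among the members that entered, no call in the fold fit or the call tests changed under any alternative run. CDK6 was left out of this check for genotype. The 4 KO libraries of replicate B had the shortest lists, and the cause of their length was not tested.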
